A study of Mus musculus with 2 samples.

Results

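Notch receptors, their ligands and their best known target genes were examined in lymph node stromal cells of normal and tumor-bearing mice. The group holds 10 genes of the 37008 gene names on the array, taken as every non-control spot whose gene name is Notch1, Notch2, Notch3, Notch4, Dll1, Dll4, Jag1, Jag2, Hey1 or Hes1. These genes have 15 of the array's 56605 probes, each printed as 1 spot. The 2 groups are cells of female C57BL/6 mice without a tumor and cells of nodes draining a 4T1 mammary carcinoma, taken 2 weeks after the tumor cells were placed under the skin of the mammary gland. 4T1 is known as a BALB/c line, so tumor and host differ in strain as labelled. Both samples were flow-sorted for lack of surface CD45, the pan-leukocyte antigen, and the sources used here state neither the number nor the age of the mice, nor whether mice were pooled. Each group has 1 array, so no difference has a replicate check, no p-value is given, and precision is limited by that number. The gene for CD45, Ptprc, had signals of 3702 (normal) and 17432 (tumor-draining), so its RNA was measured in both sorted samples.

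Notch receptors are cell surface proteins that are cut when a ligand on a neighboring cell pulls on them. The freed intracellular part enters the nucleus, joins the DNA-binding protein RBPJ and switches on target genes such as those of the Hes and Hey families. In lymphoid organs, stromal cells that carry Delta-like ligands are known to supply Notch signals to T cells, B cells and dendritic cells, and in vessels Notch directs arterial identity and the upkeep of mural cells.

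The Notch genes split by member. In tumor-draining nodes Notch4, Notch3, Dll4, Jag1, Jag2, Hey1 and Hes1 were at least 2-fold lower, whereas Notch1, Notch2 and Dll1 were within 2-fold. Thus 7 of 10 genes were at least 2-fold lower, where 16.5% of all 24677 measured genes were, and 0 of 10 were at least 2-fold higher, where 11.4% were. The other 3 were within 2-fold, as were 72.1% of all genes. A difference is the tumor-draining minus the normal value on the log2 scale, after each array was scaled to the 75th percentile of its non-control spots, a signal of 374 (normal) or 358 (tumor-draining). The median difference of the 10 genes was -1.70, and that of all measured genes was 0.10. Scaling to the 8 spike-in probes with a signal under 60000 on both arrays instead raised every difference by 0.78. Under it 4 of the 10 genes (Notch4, Dll4, Jag1 and Notch3) were at least 2-fold lower, against 8.35% of all genes, 0 were at least 2-fold higher, against 43.8%, and 6 were within 2-fold, against 47.9%. Those spike-in probes differed among themselves, from -0.94 to 0.33, and no source states that both samples received the same spike-in amount.

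Upstream sequence is shown for the receptor and the ligand with the largest differences under the reported scaling, Notch4 and Dll4 (with normexp Jag1, at -2.02, was lower than Dll4, at -1.31, and as the mean over all probes Notch3, at -2.26, was lower than Notch4, at -1.49), and for the 2 receptors nearest to 0, Notch1 and Notch2, so that the regions can be read beside the values. Each line gives the 250 bases before the gene's start in RefSeq, build GRCm38.p6, 5′ to 3′ on the gene's strand, and capitals mark GGAA on either strand (TTCC on the strand shown), the core letters bound by ETS transcription factors, a family with known roles in endothelial genes.
Notch4 (chr17:34564045-34564294, plus strand): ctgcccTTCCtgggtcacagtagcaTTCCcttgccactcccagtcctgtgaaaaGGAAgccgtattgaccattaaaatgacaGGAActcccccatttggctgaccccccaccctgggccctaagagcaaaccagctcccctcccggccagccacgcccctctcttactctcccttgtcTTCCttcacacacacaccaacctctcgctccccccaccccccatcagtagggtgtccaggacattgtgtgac
Dll4 (chr2:119325534-119325783, plus strand): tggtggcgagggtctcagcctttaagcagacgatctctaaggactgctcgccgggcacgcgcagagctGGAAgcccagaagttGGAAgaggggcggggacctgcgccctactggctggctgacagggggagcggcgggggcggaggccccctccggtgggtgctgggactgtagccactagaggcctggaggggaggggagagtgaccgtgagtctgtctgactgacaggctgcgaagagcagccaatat
Notch1 (chr2:26503823-26504072, minus strand): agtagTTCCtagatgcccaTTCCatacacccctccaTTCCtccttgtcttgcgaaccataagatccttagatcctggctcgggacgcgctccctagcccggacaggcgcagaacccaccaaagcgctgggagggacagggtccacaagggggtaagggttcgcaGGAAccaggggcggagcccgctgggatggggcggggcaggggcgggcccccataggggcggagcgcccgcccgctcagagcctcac
Notch2 (chr3:98013288-98013537, plus strand): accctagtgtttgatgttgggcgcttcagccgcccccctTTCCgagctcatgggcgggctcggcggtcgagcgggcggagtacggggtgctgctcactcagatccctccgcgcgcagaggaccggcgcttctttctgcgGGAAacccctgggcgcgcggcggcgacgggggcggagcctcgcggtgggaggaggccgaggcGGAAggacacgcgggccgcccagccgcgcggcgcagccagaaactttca

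The letters GGAA occurred 5 times before Notch4, 2 times before Dll4, 4 times before Notch1 and 3 times before Notch2. Over 32851 RefSeq promoter windows of 250 bases, 93.45% held at least 1 match and the median was 3 matches. Among the 9 windows matched to 8 of the 10 genes (Dll1 has 2 windows), 7 held at least 1 match, and those of Notch3 and Jag2 held 0. The longer motif TGGGAA, which contains GGAA and holds the core letters of the RBPJ site, occurred in 21.59% of all windows on either strand. It occurred in 0 of the 9 windows, and Hey1 and Hes1 were not matched. The base composition ran from 58.4% G and C before Notch4 to 72.0% before Notch2 among the 4 windows shown, with a median of 52.4% over all windows.

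The receptors fell into 2 pairs. Notch4, the receptor known from endothelium, had signals of 4488 ± 449 (normal) and 489.7 ± 49.0 (tumor-draining), where ± is the error that the scanner software assigns to a spot's own signal and covers no difference between mice. The normal signal lay far above the other, and Notch4 was 8.78-fold lower (-3.13 ± 0.20, the software errors of both arrays combined). Notch3, the receptor known from pericytes and vascular smooth muscle, had signals of 5096 ± 510 (normal) and 1019.6 ± 102 (tumor-draining), and was 4.79-fold lower (-2.26 ± 0.20). The Notch3 probe lies at chr17:32257888-32257947 and the brightest Notch2 probe at chr3:97953914-97953973 (mm9). Both arrays lay well above background for Notch4 and Notch3, and the software errors of the arrays did not overlap.

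Notch1, which T cell development and endothelium both require, had signals of 506 ± 50.6 (normal) and 549.7 ± 55.0 (tumor-draining), a difference of 0.18 ± 0.20. Notch2, known for its role in marginal zone B cells and myeloid cells, had signals of 1419.9 ± 142 and 1456 ± 146, a difference of 0.10 ± 0.20. The differences of both receptors were within the software error, and they stood close to the median of all genes, with 54.2% of measured genes as low as Notch1 or lower and 49.9% as low as Notch2 or lower. For Notch4 and Notch3 those shares were 0.73% and 4.48%. The near-zero values of Notch1 and Notch2 depended on the scale, since scaling to the spike-ins gave 0.96 and 0.88.

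**Figure D1:**
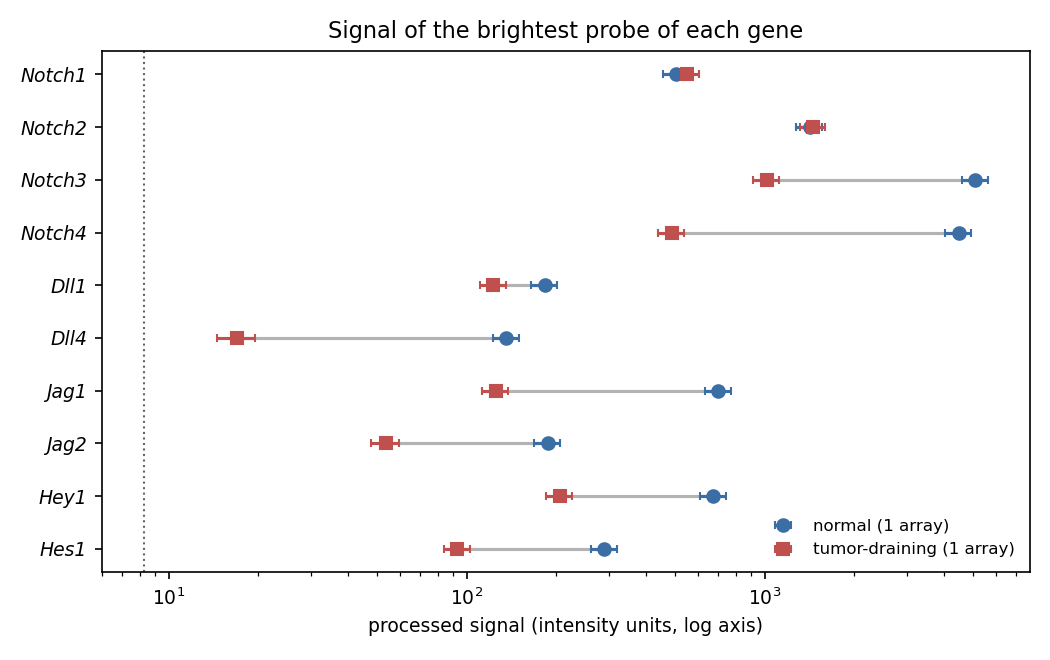
Processed signal of the brightest probe of each gene in normal (circles) and tumor-draining nodes (squares), in intensity units on a log axis, before scaling. Bars are the scanner software's error of 1 spot, and the dotted line marks the lowest signal well above background on the tumor-draining array (8.27). The symbols coincide for Notch2, whose signals were 1419.9 and 1456, and lie farthest apart for Notch4.

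The Notch4 and Notch1 probes show how far a receptor's value rests on 1 probe, so the first 30 of the 60 bases of each are printed below, 5′ to 3′, as the array files give them.
Notch4 probe 1: agtcactgctatctccgagaaccccaaact
Notch4 probe 2: ttggtcttaaggcactgaagccagaggccg
Notch4 probe 3: ggttaggtatcaatgttttgatctaagctt
Notch1 probe 1: tcctgcagtggagggggccttgagacaggc
Notch1 probe 2: agaactggactgtactcaggagtgagcgtc

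Notch4 probe 1 gave the value above and lies at chr17:34725384-34725442 (mm9, plus strand). Probe 2 is assigned to the same RefSeq transcript and spans chr17:34721567-34721775, more than its 60 bases, so its sequence is interrupted in the genome. It was well above background on the normal array only, with signals of 17.7 ± 2.35 and 1.93 ± 1.67, and was at least 2.05-fold lower. Probe 3 was made for a cDNA clone that the array files describe as possibly chimeric and lies at chr17:35104770-35104829, 379 kb beyond probe 1, whereas RefSeq gives the gene a length of 24.3 kb. It was not well above background on either array. The array files state no exon or UTR for any of these positions.

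Notch1 probe 1 (chr2:26319440-26319499, mm9, minus strand) gave the value above. Probe 2 (chr2:26354049-26354108, minus strand) is assigned to another transcript and was dim, with signals of 23.3 ± 2.88 (normal) and 13.0 ± 2.29 (tumor-draining), a difference of -0.78 ± 0.31. The probes therefore disagreed in sign, and their mean was -0.30. Among genes with 2 or more probes above background on both arrays, the median SD of the difference between probes was 0.27 over 7599 genes.

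Under the reported scaling all 4 ligands had lower values in tumor-draining nodes. Of these, 3 were at least 2-fold lower, where 16.5% of all genes were. Scaled to the spike-ins, 3 of the 4 were below 0 and 2 were at least 2-fold lower, where 8.35% of all genes were. Dll4, the Delta-like ligand of arterial and tip endothelial cells and of fibroblastic niches, had signals of 136 ± 13.7 (normal) and 17.0 ± 2.45 (tumor-draining), the second near the lowest signal well above background (8.27). It was 7.67-fold lower (-2.94 ± 0.25), and normexp background correction, which adds an offset of 50 to each signal, gave -1.31. Jag1, a Jagged ligand of endothelial and smooth muscle cells, had signals of 700.5 ± 70.1 and 125 ± 12.7 and was 5.36-fold lower (-2.42 ± 0.21). Jag2, the other Jagged ligand, had signals of 187 ± 18.8 and 53.5 ± 5.65 and was 3.35-fold lower (-1.74 ± 0.21).

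The ligand probes lie at chr2:119160779-119160838 (Dll4, plus strand), chr2:136907433-136907492 (Jag1, minus strand), chr12:114146887-114146946 (Jag2, minus strand) and chr17:15504623-15504682 (Dll1, minus strand), all in mm9.

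Dll1 stood apart from the other ligands. This Delta-like ligand, carried by fibroblastic stroma that supports marginal zone B cells in the spleen, had signals of 183 ± 18.4 (normal) and 123 ± 12.4 (tumor-draining). The difference of -0.51 ± 0.21 was within 2-fold, and it turned to 0.27 when scaled to the spike-ins. Its gap to the next lower gene, Hes1, was 1.06 under the reported scaling.

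The target genes were measured at chr3:8663432-8663491 (Hey1, minus strand) and chr16:30067820-30067879 (Hes1, plus strand), and both were lower. Hey1, a transcriptional repressor of arterial endothelium, had signals of 673 ± 67.3 (normal) and 205 ± 20.6 (tumor-draining) and was 3.14-fold lower (-1.65 ± 0.20). Hes1, a repressor that Notch induces in many cell types, had signals of 289.7 ± 29.0 and 93.2 ± 9.51 and was 2.98-fold lower (-1.57 ± 0.21). Scaling to the spike-ins brought both within 2-fold, to -0.87 for Hey1 and -0.79 for Hes1, and Jag2 to -0.96.

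In the order of the differences under the reported scaling, several neighbors were closer to each other than the SD of 0.27 between probes of a gene. These were Notch4 and Dll4 (a gap of 0.19), Jag1 and Notch3 (0.16), Jag2 and Hey1 (0.09), Hey1 and Hes1 (0.08), and Notch2 and Notch1 (0.08). The gaps between Dll4 and Jag1 (0.52), Notch3 and Jag2 (0.52), Hes1 and Dll1 (1.06) and Dll1 and Notch2 (0.61) exceeded it. That SD is between probes on the same arrays and covers no difference between mice. A gap above it therefore does not show that the order would hold in other mice. A shift of scale leaves these gaps as they are, whereas normexp alters them and the order.

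**Figure D2:**
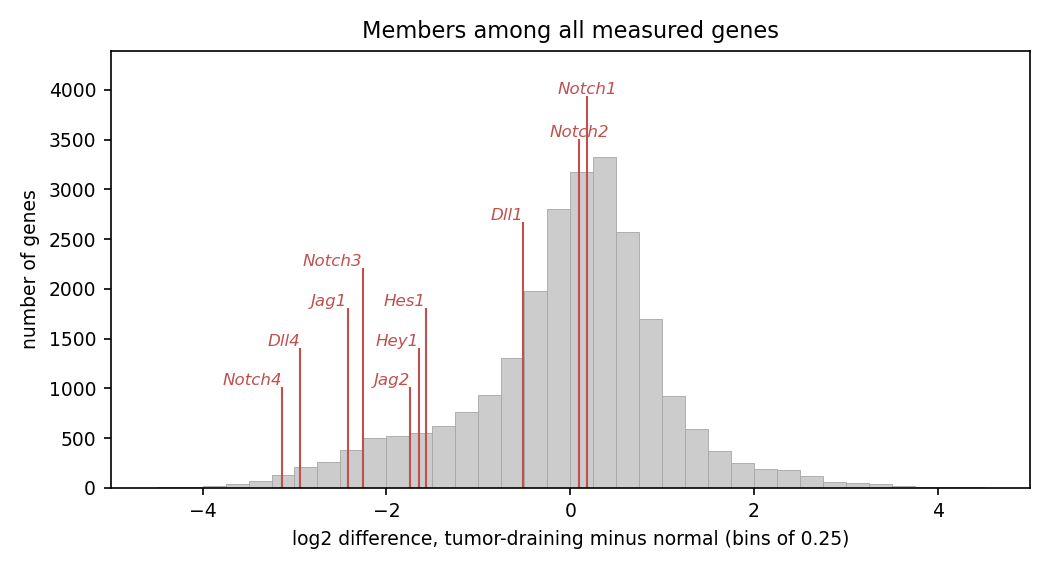
Number of genes (y axis) by log2 difference, tumor-draining minus normal (x axis, bins of 0.25), for the measured genes, with a vertical line at each Notch gene, whose height carries no value; genes beyond the axis are not drawn. Notch1 (0.18) and Notch2 (0.10) lie in the body of the distribution, and Notch4 (-3.13) lies in its lower tail.

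Markers of the cells that could carry these genes differed between the arrays as well. Of 13 blood endothelial markers, 13 were lower by 2-fold or more (11 under the spike-in scaling), with a median of -2.96 and a range from -3.54 to -1.17. All 6 arterial markers were at least 2-fold lower (median -2.54), as were all 7 lymphatic markers (-2.35), all 9 fibroblastic reticular markers (-1.95) and 7 of 8 mural markers (-2.81). Of 8 pan-leukocyte genes, 8 were higher by 2-fold or more (median 1.79), as were 7 of 9 B cell (1.80) and 9 of 10 T cell markers (2.26), while 1 of 7 myeloid markers was (0.55). Of 7 epithelial markers, 2 were higher by 2-fold or more, the basal keratin genes Krt14 (2.25) and Krt5 (1.92), and the median was 0.35. The spike-in scaling left 6 of 7 lymphatic, 5 of 9 fibroblastic reticular and 5 of 8 mural markers lower by that size and all 6 arterial ones, and it put 5 of 7 myeloid and 6 of 7 epithelial markers higher by that size. Every listed marker was above background on both arrays, including those of leukocytes. The summed signal of the blood endothelial list was 90995 (normal) and 17494 (tumor-draining), and that of the pan-leukocyte list 21630 and 75952. Fewer cells of a type and less RNA per cell cannot be told apart in these samples, and the part of the cell makeup in the Notch differences was not tested.

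Set beside these lists, Dll4 differed from the median blood endothelial marker by 0.02, with 7 of 13 markers lower than it and 6 higher. Notch4 lay 0.17 below that median, with 2 of 13 markers lower, and below all 6 arterial markers. Jag1 lay 0.54 above the blood endothelial median, 0.12 above the arterial one and 0.07 below the lymphatic one. Notch3 lay 0.55 above the mural median, with 5 of 8 mural markers lower. It lay nearer to the lymphatic (0.09 above), arterial (0.28 above) and fibroblastic reticular (0.31 below) medians. With normexp, Dll4 lay 1.20 above the blood endothelial median, Notch4 0.47 below it and Notch3 0.02 above the mural median.

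Hey1 and Hes1 were less reduced than most endothelial markers, at 1.31 and 1.39 above the blood endothelial median, with 11 of 13 markers lower than each. They lay 0.29 and 0.37 above the fibroblastic reticular median, with 5 of 9 of those markers lower. Dll1 lay 1.43 above the fibroblastic reticular median, above all 9 of its markers. Notch1 and Notch2 lay above all 13 blood endothelial, 9 fibroblastic reticular and 8 mural markers. Both lay below all 8 pan-leukocyte, 9 B cell and 10 T cell markers. Each had 2 of 7 myeloid markers below it and 5 above, and 1 of 7 epithelial markers below it and 6 above. They lay 0.17 and 0.25 below the epithelial median and 0.37 and 0.45 below the myeloid median. Notch1 was 2.13 above the fibroblastic reticular median and 1.61 below the pan-leukocyte median.

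**Figure D3:**
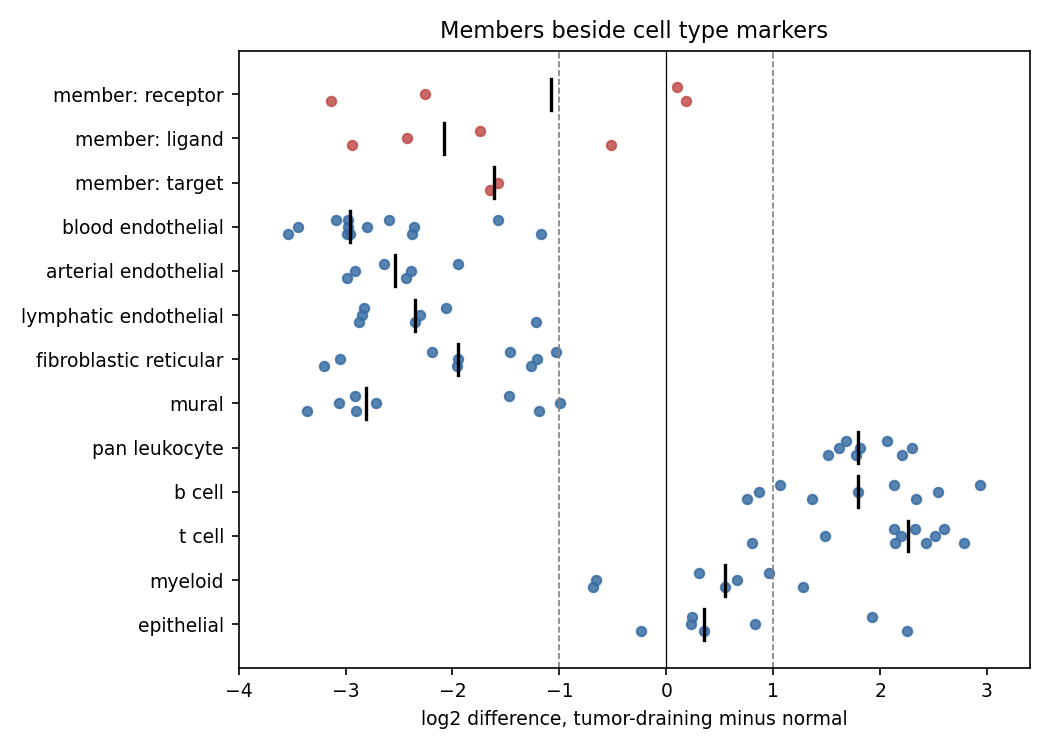
Log2 difference, tumor-draining minus normal (x axis), of each receptor, ligand and target (red) and of each cell type marker (blue), with 1 row per group; black bars are medians and dashed lines mark 2-fold. The lower receptors and ligands lie within the ranges of the blood endothelial, mural and fibroblastic reticular markers. Notch4 lies below the arterial and lymphatic markers, Dll4 below the lymphatic ones and Jag2 above the arterial ones. Notch1 and Notch2 lie above all of these lists, within the myeloid and epithelial lists and below the pan-leukocyte, B cell and T cell lists.

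The wider pathway was read from a list of 49 other genes, of which 47 were above background on at least 1 array (Dll3 and Hes3 were on neither). Of these, 9 were at least 2-fold lower, 3 at least 2-fold higher and 35 within 2-fold, with a median of -0.24. Over all genes 16.5% were lower and 11.4% higher by that size. The spike-in scaling gave 4 lower and 17 higher of 47, where 8.35% of all genes were lower and 43.8% higher.

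Among other ligands, Dlk1, which lacks the domain that binds Notch in the classical ligands, had signals of 276 (normal) and 24.1 (tumor-draining), a difference of -3.46, with its other probe at -1.75. Dlk2 had a difference of 0.82. Of 5 genes that prepare ligands through ubiquitin-driven uptake, Neurl1b was lowest, with signals of 864 and 84.3 and a difference of -3.30, or -1.48 as the mean of all its probes. Mib1, the ligase that most ligands need, was at -1.04, and within 2-fold with normexp, with the spike-in scaling and as the mean of its probes. Neurl3, another neuralized family gene, was 2.36 higher, with signals of 1561 and 7675, and its 2 probes above background were both higher (1.93 and 2.36). The brightest Mib2 probe gave -0.60, and the others reached from -2.64 to -0.29.

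Of 10 genes that cut the receptors, 8 were within 2-fold, where 72.1% of all genes were. The exceptions were the γ-secretase subunit genes Aph1b (-1.76) and Aph1c (-1.14), which are close paralogs in the mouse, so their probes may not separate them fully. Aph1b had another probe at -0.46, and the spike-in scaling put both genes within 2-fold (-0.98 and -0.36), as was Aph1c with normexp. The spike-in scaling also put 3 of the 10 genes at least 2-fold higher, where 43.8% of all genes were. All 5 genes that add or extend sugars on the receptors were within 2-fold, as were 72.1% of all genes. Pofut1, the O-fucosyltransferase, was at -0.47, or 0.31 when scaled to the spike-ins. That scaling put Mfng (1.68) and Lfng (1.44) at least 2-fold higher, as it did 43.8% of all genes.

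Of 9 nuclear cofactors, 8 were within 2-fold, where 72.1% of all genes were, including Rbpj (-0.68, with its other probe at -0.17). Kat2b was just inside that limit, at 0.996, and was past it in 4 of 11 alternatives. The spike-in scaling put 4 of the 9 at least 2-fold higher, where 43.8% of all genes were. Ep300, a histone acetyltransferase gene, was at 1.09, with probes from 0.60 to 1.09, at 0.89 as the mean of those above background, and within 2-fold with normexp and loess. Of 10 genes that dampen or route Notch, 3 were at least 2-fold lower and 1 higher. Nrarp, itself a Notch target that limits the pathway, had signals of 129 and 40.9 and a difference of -1.60, which came within 2-fold with normexp and with the spike-in scaling (-0.82). Numbl, an adaptor gene of the Numb family, was at -2.05, and Dtx4, a Deltex ubiquitin ligase gene, at -1.72 (-0.94 when scaled to the spike-ins), whereas Numb was at 0.11. Dtx1, a Deltex gene expressed in lymphocytes, was higher, with signals of 1219 and 4181 and a difference of 1.84.

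Of 6 measured genes of the Hes and Hey families beyond Hes1 and Hey1, Heyl was at least 2-fold lower, with signals of 222 (normal) and 61.1 (tumor-draining) and a difference of -1.80, or -0.78 as the mean of all its probes. Hes2 was at -0.60, Hes6 at -0.55, Hes7 at -0.28 and Hes5 at 0.52, all within 2-fold. Scaled to the spike-ins, Hes5 was at 1.30. Hey2 was above background on the normal array only, and its bound was under 2-fold.

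**Figure D4:**
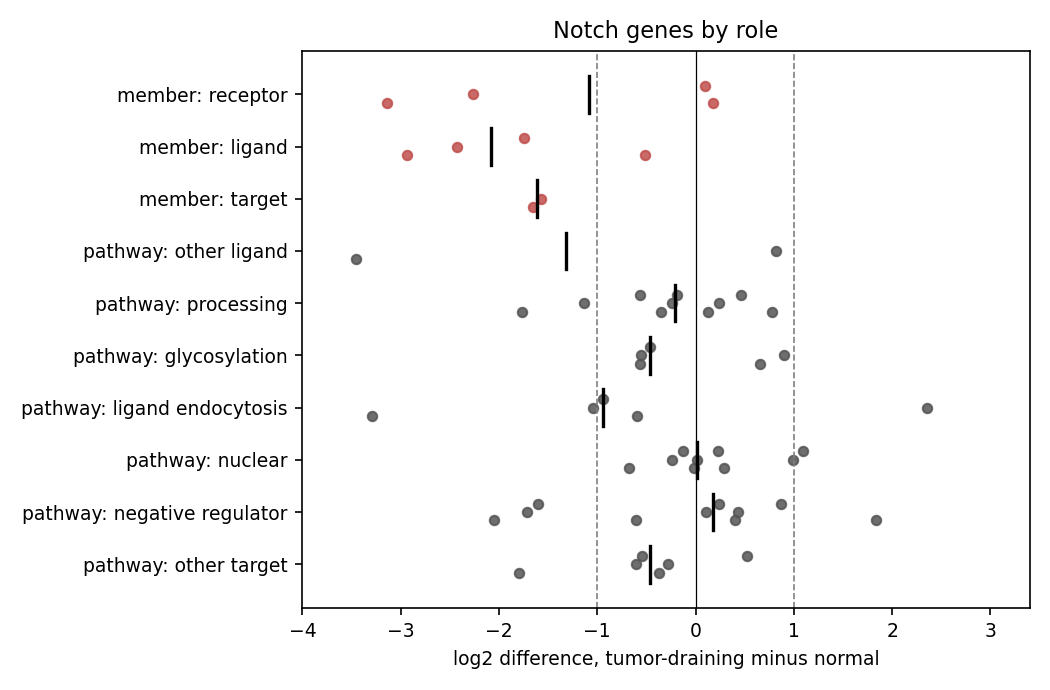
Log2 difference, tumor-draining minus normal (x axis), of each receptor, ligand and target (red) and of each other measured pathway gene (gray), with 1 row per role; black bars are medians and dashed lines mark 2-fold. The processing, glycosylation and nuclear genes lie on both sides of 0, with medians of -0.21, -0.47 and 0.02, while ligand medians lie lower. Scaled to the spike-ins (not drawn), the processing, glycosylation and nuclear medians were 0.57, 0.31 and 0.80.

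The 7 lower genes were lower under all 11 alternative settings. Notch4, Dll4, Jag1 and Notch3 stayed at least 2-fold lower in each of them, with ranges of -3.32 to -1.49, -3.08 to -1.31, -2.60 to -1.64 and -2.47 to -1.48. Jag2, Hey1 and Hes1 were at least 2-fold lower in 10 of the 11, with the spike-in scaling as the exception. Notch1, Notch2 and Dll1 were within 2-fold in all 11, and each of them took both signs. Kept outlier spots, no filter and the filter on both arrays could not move any Notch gene. No Notch spot was an outlier, and the brightest probe of each gene was above background on both arrays.

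**Figure D5:**
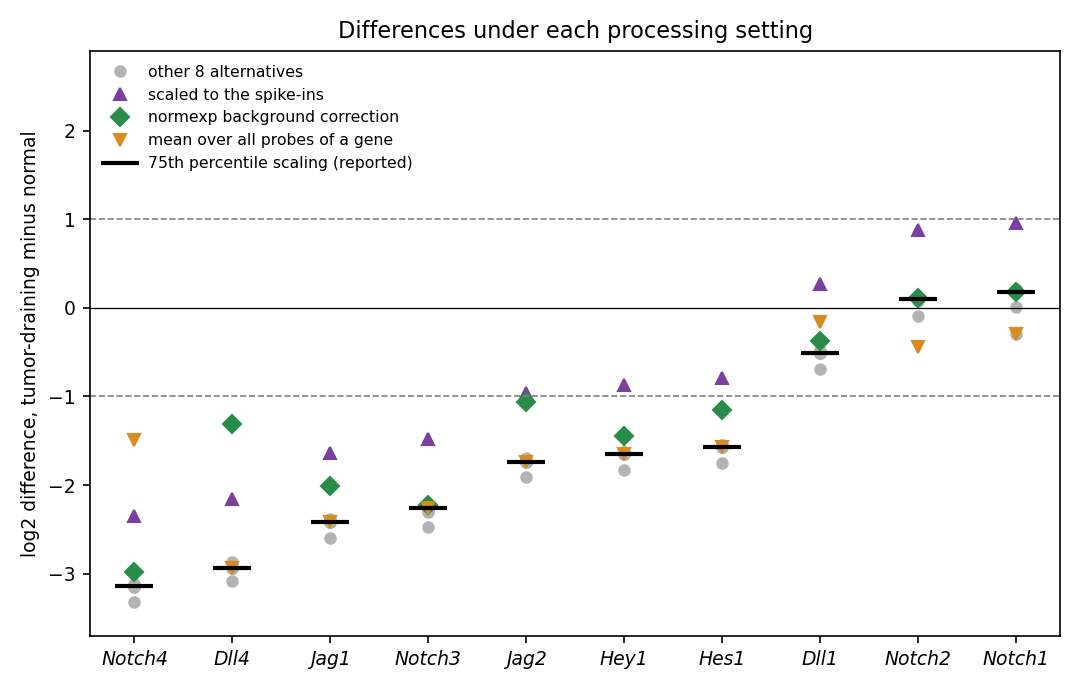
Log2 difference, tumor-draining minus normal (y axis), of each gene under the reported scaling (black bars) and 11 alternatives; dashed lines mark 2-fold. Spike-in scaling lifts every gene by 0.78, normexp lifts Dll4 most (to -1.31), and the mean over all probes lifts Notch4 to -1.49.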

How the data were processed

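Per the labels' protocols, each group's total RNA was amplified for 1-color Cy3 labeling, with 1 Agilent mouse array per group. The deposited intensities are linear and per spot. Per the file headers, Agilent Feature Extraction 12.0.3.1 (protocol GE1_1200_Jun14, mm9 positions) had already removed background, while the submitters' processing notes name version 10.7 and limma. The series table deposited by the authors is in log2 units, with its steps unstated. Its columns follow the log2 signals of their arrays, have medians of 4.85 and 4.86, and served as an alternative. Both arrays were scanned at the same time.

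For the reported values, log2 signals were reduced by each array's 75th percentile over 59305 non-control spots. Outlier spots were left out (none was a Notch spot), spots of a probe were averaged, and the brightest probe above background stood for a gene. A probe counted as above background when 50% or more of its spots had that software mark, as did 36785 probes on the normal and 35572 on the tumor-draining array. No non-control spot was saturated. RefSeq accessions (GRCm38.p6) named 32994 probes, symbols 10224 and synonyms 520, and 12867 kept the file's name. A gene above background on 1 array only was given a bound, set against the lowest signal above background on the other array. No test was run. A 2-fold size rule was used in its place, and it has no error rate with 1 array per group. The computation was checked on simulated data.

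The members, lists, naming rule and alternatives were chosen with earlier results of these data known. The text names every member, each other pathway gene past 2-fold, the smallest difference of each role (not reported here for processing and nuclear genes), and some others chosen after their values were seen (Rbpj, Hes2, Hes5, Hes6, Hey2, Dll3, Hes3, Mfng, Lfng, Rfng, Krt5, Krt14 and Ptprc). Alternatives were normexp (offset 50), quantile and loess (span 0.3) normalization, scaling to the median of well-detected probes or to spike-ins with a signal under 60000, no filter, a filter on both arrays, 2 kinds of probe means, kept outlier spots and the deposited table. Python 3.11.15, numpy 2.4.6, pandas 2.3.3, R 4.3.3 and limma 3.58.1 were used.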

Additional observations from a re-analysis of the deposited data

How the results depend on the processing

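The count of 7 Notch genes at least 2-fold lower was the same under 10 of 11 alternatives and was 4 when scaled to the spike-ins. Among these alternatives, kept outlier spots, no filter and the filter on both arrays could not move any of the 10 genes. No Notch spot was an outlier, and the brightest probe of each gene was above background on both arrays. The mean over probes above background on both arrays moved Notch1 only. The median difference of the 10 genes moved from -1.70 to -1.24 with normexp background correction and to -0.92 with the spike-in scaling. It lay between -1.87 and -1.61 under the other 9 alternatives. Among other pathway genes, the spike-in scaling gave 4 lower and 17 higher in place of 9 and 3. The spike-in scaling adds 0.78 to every difference by construction, and the cause of the normexp shift was not tested. Across the 10 genes and 11 alternatives, 91 of 110 differences moved by less than 0.27, the median SD between probes of a gene. These 91 include every value of the settings that could not move these genes, so part of that share was fixed in advance. The other 19 moved by more, and 0 of the 110 changed the sign of a gene that was at least 2-fold lower. The mean over all probes takes in probes not above background, which gave -1.49 for Notch4. No paired analysis was possible because each group has 1 array. Dim signals limit Dll4 most, whose tumor-draining signal of 17.0 stood near the lowest signal above background (8.27).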

Other observations

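Probes for other transcripts of these genes were mostly at background. The second Notch2 probe had signals of 4.19 (normal) and 2.02 (tumor-draining), and the second Dll1 probe 1.73 and 1.89, none of them well above background. The Notch4 probe for the cDNA clone had signals of 1.65 and 5.50, in the opposite direction to both other Notch4 probes and likewise not well above background.

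The fringe genes, which extend the sugars on Notch receptors and so shift their preference between ligands, did not all lie on the same side of 0. Mfng had signals of 2232 (normal) and 3977 (tumor-draining), a difference of 0.90, and Lfng had signals of 119 and 179.6, a difference of 0.66, with a second probe at 1.28. Rfng had signals of 2468 and 1615, a difference of -0.55, or 0.23 when scaled to the spike-ins. All 3 were within 2-fold by the brightest probe under the reported scaling. Scaled to the spike-ins, Mfng (1.68) and Lfng (1.44) were at least 2-fold higher. The fringe genes were named after their values were seen.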
